A study of Mus musculus with 4 samples.

Results

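The mitochondrial carriers of the SLC25 family were followed in RAW264.7, a mouse macrophage cell line. The members are the rows of the expression table whose symbol starts with Slc25a, which are 40 of 14435 genes. 2 libraries, labelled shMettl3, came from cells given an shRNA that targets Mettl3, whose product methylates adenosines in messenger RNA, and 2 libraries, labelled Control, came from cells given a nonspecific shRNA. All 4 were made after 12 hours with E. coli lipopolysaccharide (LPS), so no library shows the cells without LPS and the effect of LPS cannot be measured. The labels name 1 cell line and no separate cultures or clones, so each p-value reflects the spread among these 4 libraries alone, which may be technical. The sample labels of shMettl3 replicate 2 name METTL4 in the treatment field and shMettl3 in the title, and the design text names METTL3.

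SLC25 proteins sit in the inner mitochondrial membrane, with a few exceptions in the outer membrane or in peroxisomes, and pass nucleotides, phosphate, organic acids, amino acids, cofactors and metals between the cytosol and the matrix. Most exchange one solute for another, so the family links the respiratory chain and the tricarboxylic acid cycle to synthesis in the cytosol. In macrophages stimulated with LPS, export of citrate and exchange of dicarboxylates feed the synthesis of lipids and of signalling metabolites.

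Estimated counts totalled 16342313 and 16767622 in the shMettl3 libraries and 17142599 and 17193639 in the Control libraries. Mettl3 itself had 11.5 and 11.2 CPM (counts scaled to library size with TMM factors) in shMettl3 libraries, against 30.9 and 29.9 CPM in Control libraries (log2 fold change -1.42, SE 0.10, edgeR adjusted p = 1.58e-06). Mettl4 had 24.4 and 24.8 CPM in shMettl3 libraries and 26.4 and 24.3 CPM in Control libraries, and it was not called. Of the 12 macrophage markers checked, 11 were tested. The other had 1 count in shMettl3 replicate 1 and 0 elsewhere. Their summed level was 13330 and 13390 TPM (transcript abundance scaled for length and library size) in shMettl3 libraries, against 19410 and 18780 TPM in Control libraries. Lyz2, the largest part of this sum, had 5955 and 5779 TPM in shMettl3 libraries, against 10293 and 9350 TPM in Control libraries. Of the 11 tested, 7 were lower, 1 was higher and 3 were not called. Over all genes tested, 22.3% were lower and 21.4% higher. Fibroblast markers summed to 2.17 and 1.17 TPM in shMettl3 libraries and 0.16 TPM in each Control library, with 2 of 6 tested and both higher. Lymphocyte markers summed to at most 0.61 TPM and dendritic cell markers to at most 1.05 TPM, and the 3 neutrophil and mast cell markers in the table summed to between 36.4 and 39.4 TPM. The part of these markers in the results on the carriers was not tested. In bulk RNA, fewer cells of a type and less RNA per cell cannot be told apart.

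Levels between genes were compared in TPM. Means over the 4 libraries ran from 941 TPM for Slc25a5 down to 0.482 TPM for Slc25a42 among tested members, and Slc25a5 and Slc25a3 led in both groups. Slc25a5, the adenine nucleotide translocase ANT2 that exchanges ADP for ATP, was the most abundant, with 924 and 927 TPM in shMettl3 libraries against 944 and 969 TPM in Control libraries. Slc25a3, which imports phosphate and also copper, followed with 678 and 727 TPM in shMettl3 libraries against 668 and 661 TPM in Control libraries. Slc25a4, the translocase ANT1, had 214 and 243 TPM in shMettl3 libraries and 187 and 207 TPM in Control libraries. Slc25a39, a glutathione importer, had 205 and 209 TPM in shMettl3 libraries and 205 and 211 TPM in Control libraries, so its place beside Slc25a4 was within the spread of the libraries. Slc25a11, the carrier that exchanges oxoglutarate for malate, ranked next by its mean over all libraries, at 93.6 and 91.0 TPM in shMettl3 libraries against 111 and 113 TPM in Control libraries. In shMettl3 libraries Slc25a37 stood above it, at 110 and 111 TPM, against 91.4 and 84.2 TPM in Control libraries. The 5 most abundant members made up between 73.0% and 74.6% of the summed TPM of the Slc25a rows in every library. Family members under other names, Ucp2 among them, are outside these ranks and sums. They summed to 817 and 819 TPM in shMettl3 libraries against 884 and 878 TPM in Control libraries.

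How the summed level of the Slc25a rows compared between groups depended on the scale. It was 2896 and 2969 TPM in shMettl3 libraries and 2886 and 2898 TPM in Control libraries, or between 0.289% and 0.297% of all TPM. In CPM on the TMM scale, which does not adjust for length and was added for sums after the values were seen, it was 2794 and 2843 in shMettl3 libraries and 3008 and 3068 in Control libraries, so it was lower in both shMettl3 libraries. The median member had 18.4 and 17.8 TPM in shMettl3 libraries, against 18.3 and 16.4 TPM in Control libraries. Members with at least 10 TPM numbered 24 in each shMettl3 library, against 23 and 22 in the Control libraries. At the low end, 3 members were below the filter on low counts. Slc25a18, a glutamate carrier, had 5 and 1 counts in shMettl3 libraries and 1 and 4 in Control libraries. Slc25a41 had 1 and 0 counts in each group and Slc25a34 had 0 and 2 counts in shMettl3 libraries and 0 in both Control libraries. A count of 0 allows up to 3 counts, or between 0.172 and 0.181 CPM, and this limit covers counting error only.

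**Figure D1:**
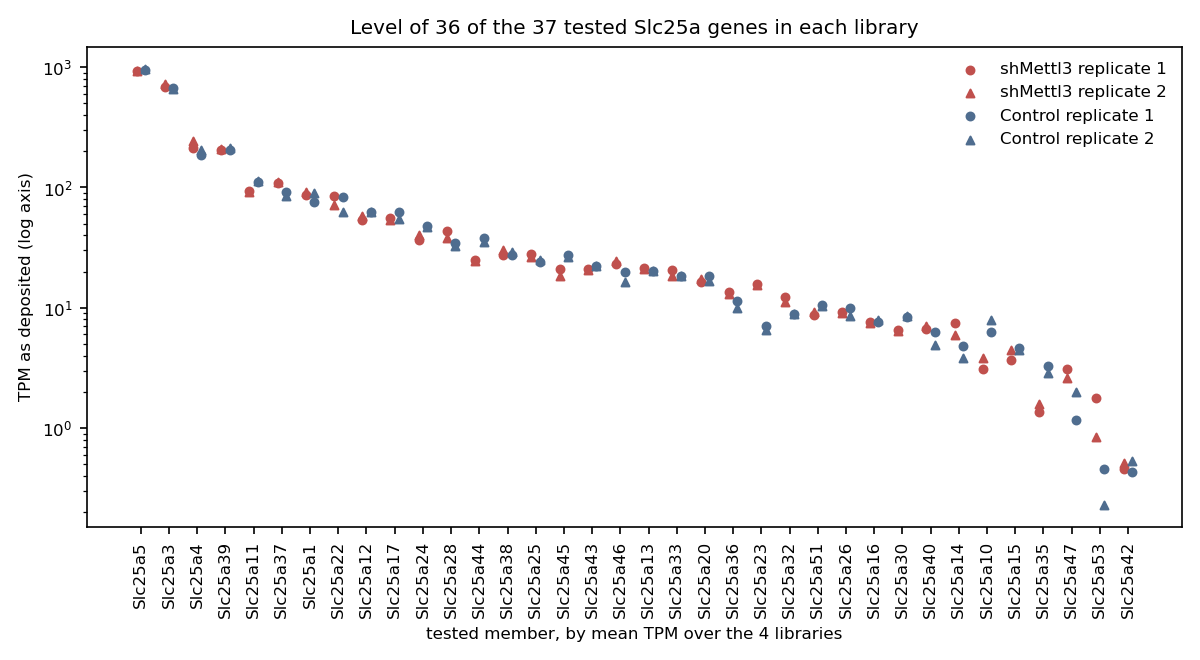
TPM of 36 of the 37 tested Slc25a genes on a log axis, ordered by their mean over the 4 libraries, with red for shMettl3, blue for Control, circles for replicate 1 and triangles for replicate 2. Slc25a5 and Slc25a3 stand apart at the top, and groups are visibly apart for Slc25a44, Slc25a23, Slc25a10, Slc25a35 and Slc25a53.

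Of the 37 members tested, 14 passed the test (37.8%), of which 4 rose and 10 fell. Passing meant an edgeR quasi-likelihood p that stayed under 0.05 after Benjamini-Hochberg adjustment over all 11035 genes tested, using the estimated counts. Across all tested genes 43.7% were called, 21.4% higher and 22.3% lower. The members' total share was near this background, while their share was smaller for rises (10.8%) and larger for falls (27.0%). These are 4 and 10 members, and no test was run on the split. The median log2 fold change, shMettl3 over Control, was -0.09 over the members and 0.01 over all genes tested. The median size of the change was 0.20 over the members and 0.26 over all genes. Changes of at least 1 on the log2 scale passed the test in 4 members (10.8%), against 8.94% of all genes. The groups did not overlap in CPM for 28 members (75.7%), against 73.4% of all genes. They lay higher in shMettl3 libraries for 9 members (24.3%, against 37.1% of all genes) and lower for 19 (51.4%, against 36.3%).

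The split of the calls depended on the scaling, and the number of calls depended on single libraries. Counts scaled by library size alone gave 6 higher and 9 lower, FPKM gave 7 and 7, and TPM gave 9 and 7, where the share of calls that were higher over all genes was 48.9% in the main fit, 64.1% with library size, 63.2% with FPKM and 70.1% with TPM. These scalings moved the median of all genes from 0.01 to 0.11, 0.10 and 0.15, so each change given here is on edgeR's TMM scale. The number of members called changed with the library left out, and so did the number called over all genes. Each of these fits has 1 library in a group. DESeq2 called 9 members, and it called 31.5% of all genes, against 43.7% in the main fit. 7 members were called in every alternative that gave them a value, namely Slc25a23, Slc25a10, Slc25a35, Slc25a44, Slc25a45, Slc25a24 and Slc25a11, and all 14 kept their direction in all alternatives that gave a value.

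**Figure D2:**
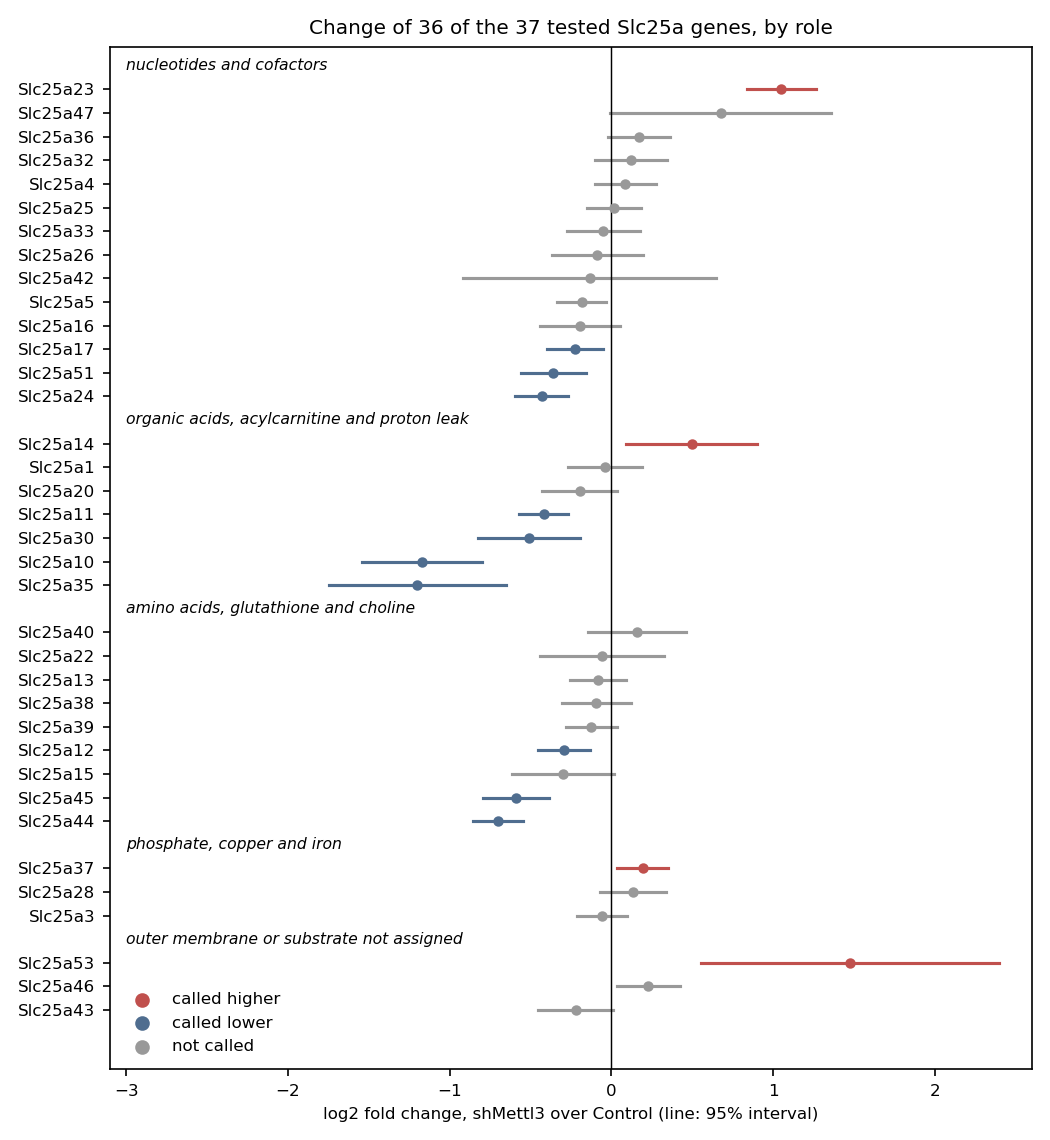
Log2 fold change of 36 of the 37 tested members, shMettl3 over Control, with its 95% interval, in groups by role, where red marks members called higher, blue members called lower and grey members not called. In the group of organic acids, acylcarnitine and proton leak, 4 of 7 members were called lower, against 22.3% of all genes. These include Slc25a35, whose substrate is not settled. Slc25a23, at 1.05, was the 1 nucleotide or cofactor carrier called higher.

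Among carriers of nucleotides and cofactors, 1 of 15 tested members rose and 3 fell, with a median log2 fold change of -0.09. Of all genes tested, 21.4% rose and 22.3% fell, and no test was run on the group. Slc25a23 rose. It encodes a carrier that exchanges ATP with magnesium for phosphate and is gated by calcium, and it had 508 and 520 counts in shMettl3 libraries against 247 and 235 in Control libraries. These are 30.2 and 29.9 CPM in shMettl3 libraries and 14.9 and 14.2 CPM in Control libraries, a log2 fold change of 1.05 (SE 0.10, edgeR adjusted p = 1.11e-05). Both shMettl3 libraries lay at about the same level, and the groups were far apart relative to the spread within each.

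The related carrier Slc25a24 fell. It had 71.2 and 78.8 CPM in shMettl3 libraries against 100.6 and 101.5 CPM in Control libraries (log2 fold change -0.43, SE 0.07, edgeR adjusted p = 8.27e-04). Slc25a25, the other carrier of this kind in the test, was not called, with 52.5 and 50.2 CPM in shMettl3 libraries and 49.2 and 52.5 CPM in Control libraries (log2 fold change 0.01, 95% interval -0.15 to 0.18). Its counts were not whole numbers, as when reads are divided between genes, and its locus overlaps Naif1 in the annotation. Slc25a25 had 882.87 and 874.1 counts in shMettl3 libraries and 817.63 and 870.61 in Control libraries. Naif1 had 83.13 and 104.9 counts in shMettl3 libraries and 100.37 and 110.39 in Control libraries. In each library the fractions of the 2 genes add to a whole number. Naif1 was not called (log2 fold change -0.20). The summed level of these 3 carriers was 80.3 and 82.6 TPM in shMettl3 libraries and 78.7 and 77.9 TPM in Control libraries, while in CPM it was 154 and 159 in shMettl3 libraries and 165 and 168 in Control libraries, so the direction of the sum depended on the scale. The share held by Slc25a23 was 19.6% and 18.8% in shMettl3 libraries, against 9.02% and 8.43% in Control libraries, with the groups well apart.

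Promoter windows of 250 bases before the annotated start were available for 31 of the 40 members, in 40 windows (RefSeq, GRCm38.p6). 3 are printed: Slc25a23, the strongest rise among members that average at least 10 CPM over all libraries, Slc25a10, the strongest fall among them, though below 10 CPM in both shMettl3 libraries, and Slc25a17, the 1 member that fell whose window holds an ETS motif. The start sites are those of the annotation and were not measured in these cells. The windows are Slc25a23, shown by 1 of its 2 overlapping windows, at chr17:57059843-57060092 on the minus strand, Slc25a10 at chr11:120491587-120491836 on the plus strand and Slc25a17 at chr15:81360766-81361015 on the minus strand. Capitals mark a motif, and lower case marks the rest.
Slc25a23: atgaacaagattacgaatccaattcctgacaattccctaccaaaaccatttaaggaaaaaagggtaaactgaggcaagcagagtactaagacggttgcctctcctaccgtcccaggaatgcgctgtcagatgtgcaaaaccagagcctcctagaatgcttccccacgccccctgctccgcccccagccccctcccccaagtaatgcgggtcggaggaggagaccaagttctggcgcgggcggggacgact
Slc25a10: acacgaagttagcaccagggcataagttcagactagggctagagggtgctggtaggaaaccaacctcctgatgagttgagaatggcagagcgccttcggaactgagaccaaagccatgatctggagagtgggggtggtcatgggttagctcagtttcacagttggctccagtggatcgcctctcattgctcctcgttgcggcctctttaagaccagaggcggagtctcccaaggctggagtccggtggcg
Slc25a17: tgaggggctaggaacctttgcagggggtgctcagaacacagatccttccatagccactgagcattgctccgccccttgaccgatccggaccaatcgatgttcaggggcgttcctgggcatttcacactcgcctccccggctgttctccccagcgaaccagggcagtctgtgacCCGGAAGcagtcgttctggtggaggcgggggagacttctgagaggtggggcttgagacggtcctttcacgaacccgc

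6 motifs were searched on both strands of the windows. The ETS motif CCGGAAG was in 5 of the 40 member windows (12.5%), against 6.91% of 32851 windows of the same length over all genes. These were the windows of Slc25a3, Slc25a4, Slc25a17, Slc25a20 and Slc25a38. The E-box CACGTG was in 7 windows (17.5%, against 6.02%), of Slc25a1, Slc25a13, Slc25a14, Slc25a15, Slc25a33 and Slc25a36. The cAMP response element TGACGTCA was in the windows of Slc25a25 and Slc25a36 (5.00%, against 1.55%), and the NRF1 motif in that of Slc25a3 (2.50%, against 3.74%). TATAAA was in the window of Slc25a18 (2.50%, against 12.4%), and the YY1 motif AANATGGCG was in 0 member windows, against 1.12%. Several genes have more than 1 window, some of them overlapping, so windows are not independent. None of the 6 motifs was in the printed windows of Slc25a23 and Slc25a10, which says only that these letters are not there.

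The other calls among nucleotide and cofactor carriers were falls. Slc25a51, which imports NAD, had 22.3 and 23.7 CPM in shMettl3 libraries against 29.3 and 29.7 CPM in Control libraries (log2 fold change -0.36, SE 0.09, edgeR adjusted p = 0.0083). That adjusted p was 0.1 without shMettl3 replicate 1, and the call was also absent with FPKM and TPM. Slc25a17, a peroxisomal carrier of coenzyme A and other cofactors, had 50.9 and 49.0 CPM in shMettl3 libraries against 61.4 and 55.5 CPM in Control libraries (log2 fold change -0.23, SE 0.08, edgeR adjusted p = 0.0374). Its call was lost without Control replicate 1 (0.101), shMettl3 replicate 1 (0.128) or shMettl3 replicate 2 (0.225), and it was called in 7 of 15 alternatives.

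The remaining nucleotide and cofactor carriers were not called. Slc25a5 had 640 and 635 CPM in shMettl3 libraries against 703 and 744 CPM in Control libraries. Its groups did not overlap, and the difference of -0.18 in log2 (SE 0.07) had an edgeR adjusted p of 0.0503, or 0.0106 without Control replicate 1, which called it. Slc25a4, with 125 and 139 CPM in shMettl3 libraries and 116 and 133 CPM in Control libraries, overlapped between groups (log2 fold change 0.08, 95% interval -0.10 to 0.27). Slc25a4 and Slc25a5 are closely related in sequence, and reads from near-identical stretches and from processed copies could be assigned to either. Both had whole-number counts in all 4 libraries, so no division of reads between genes shows in them. Whether reads were assigned to the wrong gene was not tested.

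Neither of the pyrimidine nucleotide carriers Slc25a33 and Slc25a36 was called, though the groups did not overlap in CPM for Slc25a36. Slc25a33 had 21.2 and 19.0 CPM in shMettl3 libraries and 20.5 and 21.2 CPM in Control libraries (log2 fold change -0.05, 95% interval -0.28 to 0.18). Slc25a36 had 37.4 and 36.0 CPM in shMettl3 libraries and 34.2 and 30.9 CPM in Control libraries, with a log2 fold change of 0.17 and an edgeR adjusted p of 0.132, or 0.0418 without Control replicate 1. Slc25a26, which imports S-adenosylmethionine, the methyl donor that METTL3 also uses, had a log2 fold change of -0.09 (95% interval -0.37 to 0.19), so a change past either bound is not covered by this interval. Other members of the group that were not called include Slc25a32, a carrier linked to folate and FAD (0.12), Slc25a16 (-0.19), the coenzyme A carrier Slc25a42 (-0.13) and Slc25a47 (0.68). Slc25a47 had only 45 and 39 counts in shMettl3 libraries and 18 and 33 in Control libraries, and its edgeR adjusted p of 0.1 was 0.0183 without Control replicate 2.

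In the group listed under organic acids, acylcarnitine and proton leak, 4 of 7 tested members fell and 1 rose, with a median log2 fold change of -0.42. The 4 falls include Slc25a35, whose substrate is not settled, and Slc25a30, for which no substrate is given here. The count is therefore not one of organic acid carriers alone. Over all genes 22.3% fell and 21.4% rose, and no test was run on the group. Slc25a10, the dicarboxylate carrier that exchanges malate and succinate for phosphate, had 120 and 155 counts in shMettl3 libraries against 260 and 341 in Control libraries. That is 7.14 and 8.91 CPM in shMettl3 libraries and 15.7 and 20.6 CPM in Control libraries (log2 fold change -1.17, SE 0.16, edgeR adjusted p = 3.62e-04). The Control libraries differed from each other in this gene, yet the higher shMettl3 library lay well below the lower Control library. Slc25a11 fell as well, to 90.4 and 90.1 CPM in shMettl3 libraries, against 117 and 124 CPM in Control libraries (log2 fold change -0.42, SE 0.07, edgeR adjusted p = 6.14e-04). It overlaps Rnf167 in the annotation, which had 14.04 and 13.79 CPM in shMettl3 libraries and 14.98 and 15.61 CPM in Control libraries and was not called.

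Slc25a35, whose substrate is not settled, was low and fell. It had 23 and 28 counts in shMettl3 libraries against 60 and 54 in Control libraries (log2 fold change -1.20, SE 0.25, edgeR adjusted p = 0.0025). Its locus overlaps Rangrf, which had 11.2 and 10.6 CPM in shMettl3 libraries and 9.93 and 10.5 CPM in Control libraries. Without strand in the libraries, reads from sequence that overlapping genes share cannot be told apart. The counts of Slc25a35 and Rangrf were whole numbers in all 4 libraries. Slc25a30, a carrier first described in kidney, had 6.25 and 6.15 CPM in shMettl3 libraries against 8.55 and 9.10 CPM in Control libraries (log2 fold change -0.51, SE 0.14, edgeR adjusted p = 0.0141). That p was 0.0734 without shMettl3 replicate 1 and 0.0801 without shMettl3 replicate 2, and DESeq2 gave 0.106.

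The rise in this group was in Slc25a14, a relative of the uncoupling proteins. It had 105 and 91 counts in shMettl3 libraries against 71 and 64 in Control libraries (log2 fold change 0.50, SE 0.19, edgeR adjusted p = 0.0492). This call was at the threshold and was lost in each fit that left out 1 library, with adjusted p between 0.0509 and 0.322. Slc25a1, the citrate exporter, had 79.1 and 84.0 CPM in shMettl3 libraries and 74.8 and 92.8 CPM in Control libraries. Its groups overlapped, the Control libraries bracketed the others, and the log2 fold change was -0.04 (95% interval -0.27 to 0.19). Without Control replicate 1 it was -0.20 with an edgeR adjusted p of 0.0327, and without Control replicate 2 it was 0.12 and not called. Slc25a20, the carnitine and acylcarnitine carrier, had 16.1 and 16.8 CPM in shMettl3 libraries and 19.6 and 18.1 CPM in Control libraries and was not called (log2 fold change -0.20).

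Among carriers of amino acids and glutathione, 3 of 9 tested members fell and 0 rose, with a median log2 fold change of -0.13. The shares over all genes were 22.3% lower and 21.4% higher, and no test was run on the group. Slc25a44, which imports branched-chain amino acids, had 848 and 875 counts in shMettl3 libraries against 1385 and 1336 in Control libraries. That is 50.5 and 50.3 CPM in shMettl3 libraries and 83.4 and 80.5 CPM in Control libraries (log2 fold change -0.70, SE 0.07, edgeR adjusted p = 2.02e-05). The libraries of each group were close together and the groups well apart. Its locus overlaps a long noncoding RNA not analysed here, that of Slc25a37 overlaps 3, and that of Slc25a12 overlaps a pseudogene. Slc25a45 fell to 23.1 and 20.8 CPM in shMettl3 libraries, against 33.3 and 32.8 CPM in Control libraries (log2 fold change -0.59, SE 0.09, edgeR adjusted p = 4.52e-04).

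Of the aspartate/glutamate carriers of the malate-aspartate shuttle, which moves reducing equivalents into mitochondria, 1 fell. Slc25a12, or aralar, had 90.8 and 99.0 CPM in shMettl3 libraries against 115 and 118 CPM in Control libraries (log2 fold change -0.29, SE 0.07, edgeR adjusted p = 0.00695). That p was 0.145 without shMettl3 replicate 1, and the call was absent with FPKM and TPM. Slc25a13, or citrin, had 37.1 and 36.8 CPM in shMettl3 libraries and 38.3 and 40.1 CPM in Control libraries and was not called (log2 fold change -0.08, 95% interval -0.26 to 0.09).

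The glutathione carriers were not called. Slc25a39 had 187 and 191 CPM in shMettl3 libraries and 200 and 213 CPM in Control libraries (log2 fold change -0.13, edgeR adjusted p = 0.178, or 0.0353 without Control replicate 1). Slc25a40 had 10.5 and 11.2 CPM in shMettl3 libraries and 10.7 and 8.80 CPM in Control libraries (log2 fold change 0.16, 95% interval -0.15 to 0.46). The glutamate carrier Slc25a22 differed more between libraries of a group than between groups, with 121 and 102 CPM in shMettl3 libraries and 131 and 100.7 CPM in Control libraries. The glycine carrier Slc25a38, which serves haem synthesis, had a log2 fold change of -0.09 and the ornithine carrier Slc25a15 one of -0.30, and neither was called.

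Of the 3 carriers of phosphate and metals, 1 rose and 0 fell, where 21.4% of all genes rose and 22.3% fell. Slc25a37, or mitoferrin 1, which imports iron, had 274 and 278 CPM in shMettl3 libraries against 248 and 236 CPM in Control libraries. The difference, 0.19 in log2 (SE 0.07), was at the threshold, with an edgeR adjusted p of 0.0457. The p was 0.0916 without Control replicate 2, 0.235 without shMettl3 replicate 1 and 0.294 without shMettl3 replicate 2, and some of its counts were not whole numbers. Slc25a28, or mitoferrin 2, had 31.0 and 28.3 CPM in shMettl3 libraries and 27.7 and 26.4 CPM in Control libraries and was not called (log2 fold change 0.13, 95% interval -0.07 to 0.33). The mitoferrins summed to 153 and 149 TPM in shMettl3 libraries, against 126 and 117 TPM in Control libraries, and in CPM on the TMM scale to 305 and 307 in shMettl3 libraries, against 276 and 262 in Control libraries. Slc25a3 had 552 and 589 CPM in shMettl3 libraries and 589 and 600 CPM in Control libraries (log2 fold change -0.06, 95% interval -0.21 to 0.10), and its sign turned with library size, FPKM and TPM.

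Of the members with no settled substrate or a place in the outer membrane, Slc25a53 rose, at a low level in both groups. It had 45 and 27 counts in shMettl3 libraries against 17 and 8 in Control libraries (log2 fold change 1.48, SE 0.41, edgeR adjusted p = 0.0154). The fold change was 1.03 without Control replicate 2 (adjusted p = 0.0701), 1.04 without shMettl3 replicate 1 (0.153) and 2.10 without Control replicate 1, so its size is poorly fixed. In the annotation its locus overlaps the protein-coding gene Zcchc18 and a pseudogene, neither analysed here. Reads from sequence that overlapping genes share cannot be told apart in these libraries. Slc25a46, an outer membrane protein linked to mitochondrial fusion and fission, had 51.5 and 54.7 CPM in shMettl3 libraries and 48.6 and 41.9 CPM in Control libraries. Its groups did not overlap, but its edgeR adjusted p was 0.0541, or 0.00393 without Control replicate 1. Slc25a43 had a log2 fold change of -0.22 and was not called.

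**Figure D3:**
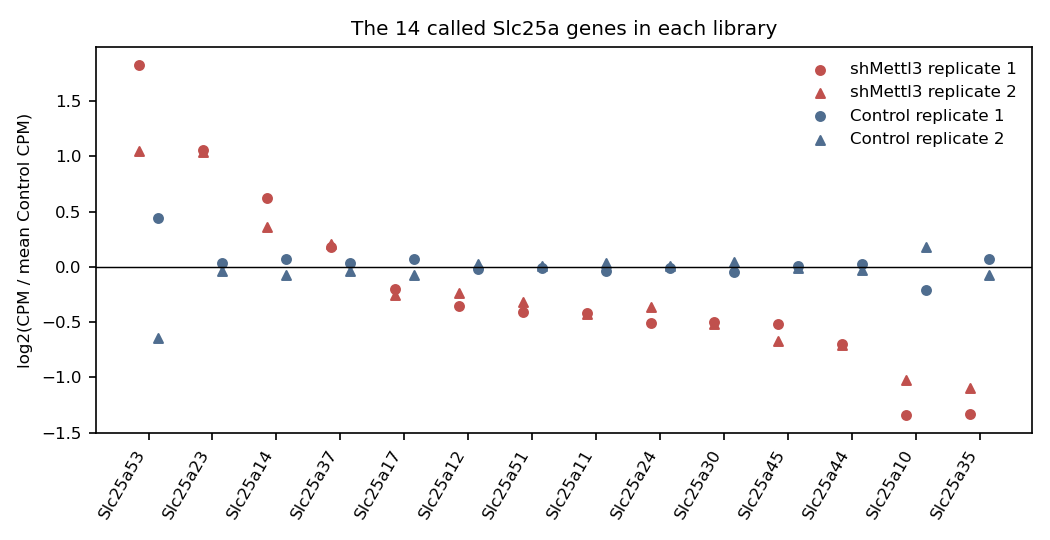
CPM of the 14 called members in each library, as the log2 ratio to the mean of the Control libraries, with shMettl3 in red and Control in blue, circles for replicate 1 and triangles for replicate 2. The 14 were picked by the test on these same libraries, so their groups lying apart adds no support. The groups lay apart for 73.4% of all genes tested. The spread within a group is widest for Slc25a53, the member with the lowest Control counts of the 14.

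Ratios of related carriers within a library do not depend on the scaling between libraries. With 2 libraries against 2, they are given as a description with no test. Slc25a23 over Slc25a24, a ratio added after the values were seen, was 0.428 and 0.383 in shMettl3 libraries against 0.149 and 0.141 in Control libraries, a difference of 1.48 on the log2 scale. Slc25a24 over Slc25a25 was 1.33 and 1.53 in shMettl3 libraries against 1.997 and 1.884 in Control libraries. Slc25a12 over Slc25a13 was 2.54 and 2.77 in shMettl3 libraries against 3.10 and 3.12 in Control libraries, so the excess of aralar over citrin was smaller in both shMettl3 libraries. Slc25a4 over Slc25a5 was 0.232 and 0.263 in shMettl3 libraries against 0.198 and 0.213 in Control libraries. Slc25a33 over Slc25a36 was 1.504 and 1.402 in shMettl3 libraries against 1.61 and 1.84 in Control libraries. For Slc25a39 over Slc25a40 the ratio was 30.7 and 29.6 in shMettl3 libraries against 32.8 and 42.8 in Control libraries. The mitoferrin ratio, Slc25a28 over Slc25a37, was 0.394 and 0.344 in shMettl3 libraries and 0.377 and 0.387 in Control libraries, and its groups overlapped. How often ratios of other gene pairs lie apart was not computed. For single genes the groups did not overlap in CPM for 73.4% of all genes tested, so the separation of the other ratios is description only.

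**Figure D4:**
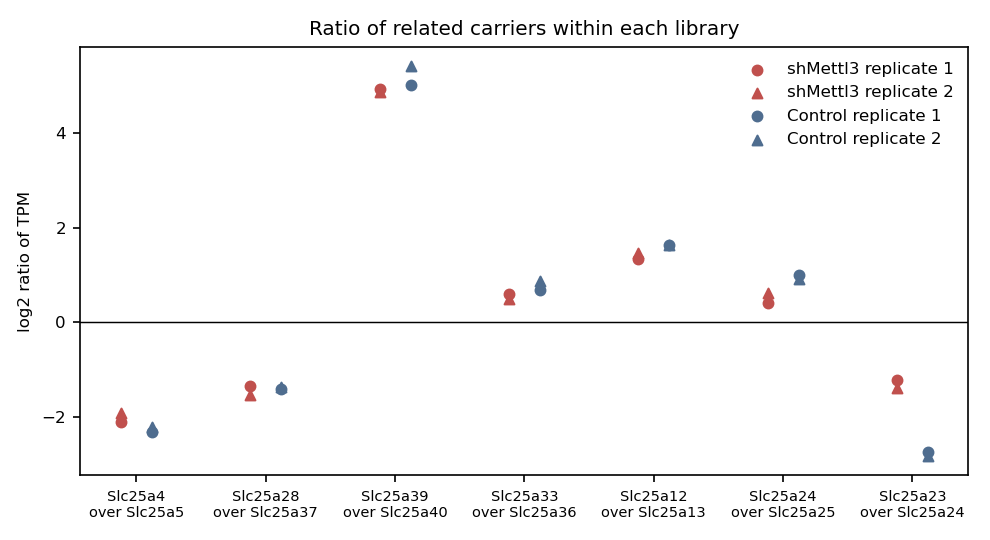
Log2 ratio of TPM of 7 pairs of related carriers in each library, with shMettl3 in red left of Control in blue. Slc25a23 over Slc25a24 shows the widest gap, 1.48 on the log2 scale, and Slc25a28 over Slc25a37 overlaps between groups.

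The deposited counts and FPKM together imply a transcript length for each gene, which moves when the authors' isoform estimate moves. This measure was added after the values were seen and is given with no test. Slc25a32 had implied lengths of 3247 and 3178 bases in shMettl3 libraries against 3519 and 3504 bases in Control libraries, a difference of -8.51%. It was the 1 member of 33 with a mean FPKM of at least 2 whose groups were apart by at least 5% (3.03%), against 3.33% of 9210 genes, 1.94% shorter and 1.39% longer. Slc25a32 was not called on counts (log2 fold change 0.12) and was called with FPKM and TPM. For Slc25a26 the implied length was 1731 and 1674 bases in shMettl3 libraries and 1493 and 1762 bases in Control libraries, so the groups overlapped.

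Genes that work with the carriers also moved in both directions. The family members that carry other names include Ucp2, a carrier of the uncoupling protein group found in macrophages, which fell to 483 and 473 CPM in shMettl3 libraries, against 636 and 657 CPM in Control libraries (log2 fold change -0.44). Mtch1, a divergent outer membrane member that takes part in protein insertion, rose (0.40), and Mtch2 was not called (0.10). Of 19 other inner membrane transporters 4 rose and 4 fell, near the background shares of 21.4% higher and 22.3% lower. Sfxn4 (1.25), Ghitm (0.53) and Mpc2 (0.30), a subunit of the pyruvate carrier, rose. Sfxn2 (-0.66), Sfxn3 (-0.41) and Mcu (-0.31), the pore of the calcium uniporter, fell. Sfxn4 was at about 1 CPM in shMettl3 libraries.

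Outer membrane channels and the import machinery of carriers had 3 of 20 higher and 6 lower, where 21.4% of all genes were higher and 22.3% lower. Timm8b (0.57), Timm10 (0.36) and Timm29 (0.24), which serve the import of carriers, rose. Timm10b (-0.40), the channel Vdac1 (-0.35) and Tspo (-0.32) fell, and so did Tomm70a (-0.22), the receptor for carrier precursors. Tomm70a was chosen after its values were seen.

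In the list of malate-aspartate and citrate shuttle enzymes, 6 of 13 tested genes fell and 2 rose. Over all genes 22.3% fell and 21.4% rose, and the list was not tested as a set. The list also holds related enzymes outside both shuttles, Gpd2 and Acod1 among them. No aminotransferase or malate dehydrogenase of the malate-aspartate shuttle was among the 6 falls. Cs, citrate synthase, fell to 290 and 287 CPM in shMettl3 libraries, against 432 and 452 CPM in Control libraries (log2 fold change -0.62). Idh1 (-0.39) and Gpd2 (-0.37) fell as well, and Got1, the cytosolic aspartate aminotransferase (0.30), was among those that rose. Acly, which splits exported citrate, fell by 0.35 on the log2 scale and Acod1, which makes itaconate, by 0.33. Acly and Acod1 were chosen after their values were seen.

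In the list of haem, iron-sulphur and mitochondrial iron genes, 7 of 20 fell and 4 rose. The shares over all genes were 22.3% lower and 21.4% higher. Hmox1, which breaks down haem, fell to 507 and 570 CPM in shMettl3 libraries, against 1258 and 1310 CPM in Control libraries (log2 fold change -1.25). Slc11a1, a phagosomal metal transporter (-0.76), and Alas1, the first enzyme of haem synthesis (-0.71), fell, while Cpox (0.85), an enzyme of haem synthesis, was among those that rose. Of 21 one-carbon, carnitine and NAD enzymes 5 rose and 6 fell, read against the same shares over all genes. Nnt, which makes NADPH in mitochondria (0.83), Rfk, which makes FMN (0.74), and Shmt1 (0.54) rose, and Flad1, which makes FAD (-0.65), and Mthfd2l (-0.48) fell.

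Of 12 regulators of mitochondrial biogenesis 3 rose and 2 fell. Ppargc1b (-0.64) and Esrra (-0.49), which act together on genes of oxidative metabolism, fell, and Gabpa (0.44), Tfb1m (0.42) and Tfb2m (0.28) rose. Of 17 genes of fusion, fission and cristae 2 rose, Mff (0.50) and Apool (0.34), and 3 fell, Oma1 (-0.68), Phb2 (-0.37) and Phb (-0.23). These counts are read against 21.4% higher and 22.3% lower over all genes, and no list was tested as a set.

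**Figure D5:**
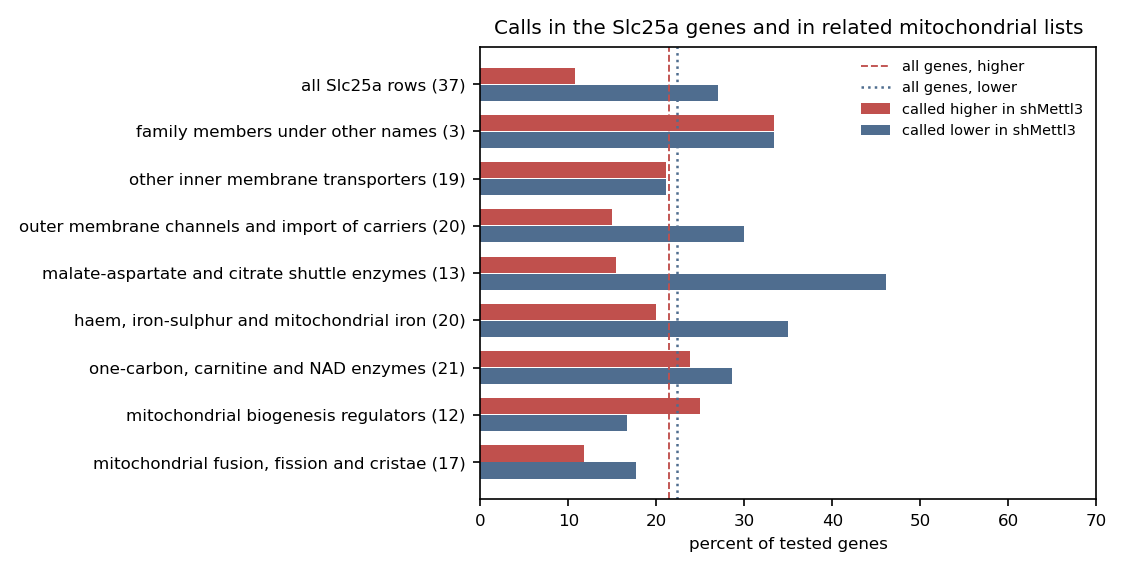
Percent of tested genes called higher (red) and lower (blue) in shMettl3 in the Slc25a genes and in 8 related lists, with the number tested in parentheses and the shares over all tested genes as vertical lines at 21.4% and 22.3%. The Slc25a genes have 10.8% higher and 27.0% lower, and the list of shuttle and related enzymes has 6 of 13 lower.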

How the data were processed

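The submitters' protocols describe poly(A)-primed, template-switched cDNA that was amplified and read as single 50-base ends on a BGISEQ500, with neither strand nor molecule marked. The submitters' processing notes list RSEM 1.2.12, Bowtie2 2.2.5, HISAT2 2.0.4 and mm9 without saying what each did, and the gene annotation is not given in the sources used here. Estimated counts, FPKM and TPM per gene were deposited by the authors, per the file headers. Counts are not whole for 1808 of 14435 genes and were rounded. The table has 0 columns of other samples.

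edgeR 4.0.16 (R 4.3.3, TMM, robust quasi-likelihood) compared the groups after filterByExpr (minimum count 10, minimum total 15), which left 11035 genes and 37 members. Standard errors were taken as |log2 fold change| divided by the root of F. CPM is TMM-scaled. The script was tested on simulated data. Alternatives were other scalings, filters and tools (DESeq2 1.42.0, limma 3.58.1, FPKM and TPM on log2 with a pseudocount of 0.1 or 1), each library left out and the replicate block. Chi-square over degrees of freedom was 3.61 between the shMettl3 and 9.86 between the Control libraries, above the value of sampling noise in both. The members and lists were chosen with earlier results of these data known. Named with full values were called members with groups apart and at least 10 CPM (up to 12), the 5 most abundant, and 6 fixed pairs; from each related list up to 3 rises and 3 falls. Other called members were added. Promoter windows are RefSeq's on GRCm38.p6, a later build than mm9. Overlaps between genes were taken from the same annotation, in which all 40 members were found. Some genes of the lists, 1 tested member among them, are counted in the totals but not reported here by name.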

Additional observations from a re-analysis of the deposited data

How the results depend on the processing

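The replicate numbers are shared between groups, but the labels do not say that a number marks a shared culture or day, so they pair nothing by design. Deviations of same-numbered libraries correlated at 0.146 across genes. With the replicate block edgeR called 14 members, 4 higher and 10 lower, as in the fit without it, and 5116 genes in all. The number of members called was between 7 and 17 with 1 library left out, with 1 to 5 higher and 6 to 12 lower, and 3095 to 5324 genes were called in all, with 1503 to 2543 higher and 1592 to 2781 lower. The median of the members was between -0.164 and -0.0606 in these fits, 0.0016 with library size, -0.0305 and -0.0176 with FPKM at pseudocounts of 0.1 and 1, and 0.0164 with TPM. Members called higher numbered 2 with DESeq2 size factors, with no filter and without robust fitting, 1 in DESeq2 (9 members in all), 7 with FPKM at either pseudocount and 9 with TPM. With TPM 1498 genes were lower in all. Signs turned in at least 1 alternative for 10 members, 0 of them called with the main settings. Over all alternatives Slc25a1 ran from -0.199, called without Control replicate 1, to 0.119, Slc25a22 from -0.241 to 0.13, Slc25a42 from -0.317 to 0.0515, Slc25a38 from -0.176 to 0.0364 and Slc25a26 from -0.13 to 0.0085. Slc25a3 was 0.0367 with library size, 0.0234 and 0.0233 with FPKM at pseudocounts of 0.1 and 1, and 0.0786 with TPM. In the same order Slc25a33 was 0.0448, 0.0325, 0.0303 and 0.088, and Slc25a13 was 0.0111, 0.0117, 0.0109 and 0.0672. With 1 library left out, Slc25a33 was between -0.132 and 0.0292, Slc25a4 between -0.0192 and 0.177, Slc25a25 between -0.043 and 0.0559 and Mettl4 between -0.108 and 0.0036. Mettl4 was 0.0507 with library size, 0.164 and 0.144 with FPKM and 0.22 with TPM. The cause of these shifts was not tested, and a fit without 1 library takes the spread of the lone library to be like that of the other group. Of the 23 members not called, 8 were called in at least 1 alternative and 15 in none. Below about 50 counts, as for Slc25a53 and Slc25a47, intervals were wide.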
